A study of Mus musculus with 36 samples.

Results

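Lungs collected 28 days after a single intratracheal instillation of 18 µg of Tube TiO2 nanoparticles were compared with lungs collected 28 days after an instillation of 0 µg. The mice were chosen by their dose and time labels, which gave 4 mice at 18 µg on 4 arrays and 3 control mice on 4 arrays, the paired arrays of 1 control mouse being averaged. These are 7 of the 29 mice and 8 of the 36 arrays of the series. All mice were female C57BL/6 animals from Jackson, 5 to 7 weeks old, and each received 40 µl into the trachea. 18 µg was the lowest of 3 particle doses, and groups of 4 mice at 54 µg and 4 at 162 µg of the same day are given where they place an 18 µg value on the dose scale. The labels report 5 mice per group for RNA, and RNA came from random sections of frozen lung, so each value is a bulk average over the cells in those sections.

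Titanium dioxide particles that reach the alveoli are taken up mainly by resident macrophages, which carry them to the airway or hold them in lysosomes. Lung epithelium and macrophages can answer particles with chemokines that draw neutrophils and monocytes, with acute phase proteins such as the serum amyloids, and with interferon-stimulated genes, which encode antiviral enzymes and their regulators. Macrophages that have engulfed lipid or debris express receptors such as Trem2 and the glycoprotein Gpnmb.

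Each array measured lung RNA in Cy5 against a common RNA of mouse cell lines in Cy3, and values are log2(Cy5/Cy3) unless a change is named. A level near 0 means similar signals in both dyes after normalization within the array, and does not give the amount of transcript. Probes dim in both dyes also come near 0, because an offset of 50 was added to both signals. Per array, the Cy5 signal stood well above background for 48.6% to 58.1% of probes. Lung identity was checked first. The surfactant gene Sftpc, made by alveolar type 2 cells, was at 7.87 to 8.40 in the 18 µg mice and at 8.17 to 8.26 in the control mice. Scgb1a1, the secretoglobin of club cells, was at 6.78 to 7.56 in the 18 µg mice and at 7.05 to 7.49 in the control mice.

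1 of the 7 mice stood apart. In 18 µg mouse 1, the mean log2 Cy5 intensity over a list of skeletal muscle genes was 14.91, against 7.38 to 7.99 in the other 18 µg mice and 7.36 to 7.76 in the control mice. Its ratios correlated with those of the other 6 mice at r = 0.810 to 0.851 across genes, which are not independent replicates, whereas those 6 correlated among themselves at 0.906 to 0.983. A list of squamous epithelium genes did not move with it: that list's mean was 6.93 to 7.38 in the 18 µg mice and 7.05 to 7.43 in the control mice. The muscle genes passed a mean of 9 on 12 of the 36 arrays, among them 1 of 4 arrays at 18 µg, 4 of 5 at 54 µg, 0 of 5 at 162 µg and 0 of 4 of the controls at day 28. The 4 at 54 µg included both arrays of 1 mouse. In addition, the labels of 1 mouse at 162 µg conflict, its titles giving day 1 and its time label day 28. It was used as day 28. It enters the comparison with 162 µg directly and the others through the shared estimate of the spread, with 912 genes at an unadjusted p under 0.05 between 18 µg and control at day 28 when it was left out, against 1005 with it. The labels do not say whether mice were treated together, so p-values rest on the spread between mice. That spread was pooled within groups over all 29 mice, not taken from the 7 compared alone. With only the compared groups in the limma fit, 465 genes had an unadjusted p under 0.05.

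No gene passed the test between 18 µg and control lungs at day 28. Of 23244 genes tested with limma across all 29 mice, 0 (0%) were higher and 0 (0%) were lower at a Benjamini-Hochberg adjusted p under 0.05, and the smallest adjusted p was 0.893. At an unadjusted p under 0.05 there were 1005 genes, 276 higher (1.19% of all tested) and 729 lower (3.14%). Every 18 µg mouse lay above every control mouse for 443 genes (1.91%) and below for 610 (2.62%). The median change over all genes was -0.02 on the log2 scale. The 95% confidence interval of a change reached 0.317 to either side for the median gene. That interval is not adjusted for the number of genes, so a call needed a change larger than that for such a gene.

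**Figure D1:**
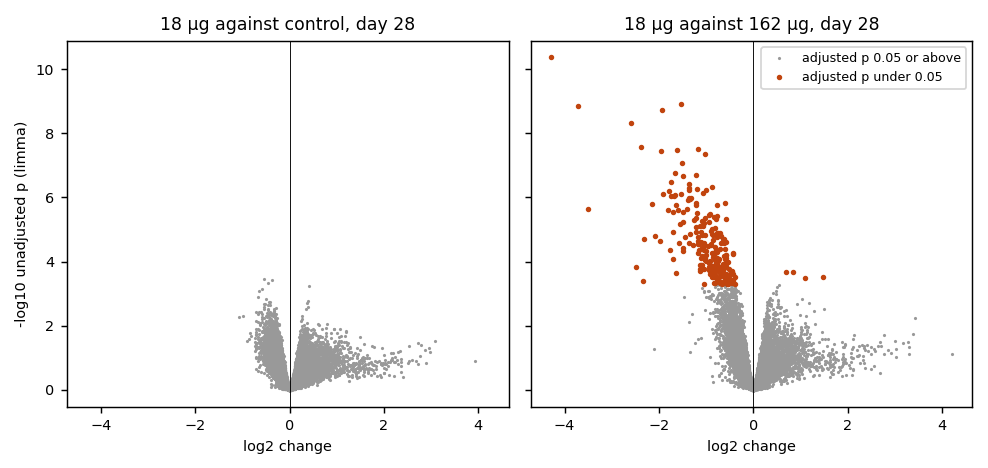
Change (x axis, log2) against -log10 of the unadjusted limma p (y axis) for the 23244 genes tested at day 28, for 18 µg against control on the left and for 18 µg against 162 µg on the right, with genes at an adjusted p under 0.05 in colour. No gene is coloured on the left, and 236 are coloured on the right, 232 of them lower at 18 µg.

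The 24 genes ranked here mostly had small differences, with Gbe1 and Poln near 2-fold. They are the 12 higher and the 12 lower genes with the smallest unadjusted p among those whose 2 groups did not overlap. Only genes with a symbol, well above background throughout at least 1 of the 2 groups, were ranked. The 24 are thus not those with the smallest p of all genes tested. That ordering chose them, so their changes are a description. Among the higher ones, Ankrd28, a regulatory subunit of protein phosphatase 6, was at -0.63, -0.75, -1.02 and -0.88 in 18 µg mice 1 to 4 and at -1.37, -1.13 and -1.21 in control mice 1 to 3, a difference of 0.42 ± 0.11 (SE; unadjusted p = 0.000568, adjusted p = 0.893, limma). Gbe1, the branching enzyme of glycogen synthesis, was at 0.65, -0.32, -0.98 and 0.43 in the 18 µg mice and at -1.17, -1.16 and -1.04 in the control mice. Its 3 control mice were close together while the 18 µg mice were spread widely, with mice 1 and 4 far above mouse 3. The difference was 1.07 (95% confidence interval 0.26 to 1.88), the largest of the 12. Hspa4, a heat shock protein of the Hsp110 family, was at -0.51, -0.99, -1.03 and -0.80 in the 18 µg mice and at -1.23, -1.22 and -1.17 in the control mice. The organic anion transporter Slc22a6 was at 1.32, 0.29, 0.14 and 0.24 in the 18 µg mice and at -0.09, -0.05 and 0.07 in the control mice, and Poln, a DNA polymerase, was at 2.03, 0.40, 0.21 and 0.63 against -0.25, -0.08 and -0.23. In both genes mouse 1, the mouse with muscle transcripts, was the highest by far. The other higher genes of the 12 were Scfd2, 2410137M14Rik, Gm2694, Cyp2d26, Arrdc4, Prpf4 and Fitm2, and the 12 differences ran from 0.27 to 1.07 with unadjusted p of 0.000568 to 0.0171.

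The 12 lower genes differed by -0.67 to -0.29, with unadjusted p of 0.000349 to 0.00279 and an adjusted p of 0.893 for each. Lyn, a Src family kinase of myeloid and B cells, was at 0.42, 0.73, 0.97 and 0.82 in the 18 µg mice and at 1.08, 1.36 and 1.22 in the control mice. Nfkbiz, an atypical inhibitor of NF-κB that also acts as its coactivator, was at -1.85, -1.29, -1.59 and -1.42 in the 18 µg mice and at -0.89, -1.15 and -0.94 in the control mice. The groups did not overlap in either gene, and 18 µg mouse 1 was the lowest of the 7 in both. Rfx2, a transcription factor of ciliated cells, was at -0.35, -0.11, 0.07 and 0.06 in the 18 µg mice and at 0.18, 0.59 and 0.33 in the control mice. Tfcp2l1, a transcription factor of epithelia and of stem cells, was at 0.69, 1.00, 1.28 and 0.97 in the 18 µg mice and at 1.36, 1.68 and 1.89 in the control mice. Irx6, an Iroquois homeobox factor, was at 0.29, 0.31, 0.27 and 0.38 in the 18 µg mice and at 1.14, 0.70 and 0.85 in the control mice. The 18 µg mice were closest to each other in Irx6. The other lower genes were Pcyox1l, Ctu1, Srsf6, Rbm4b, Upf1, Nfxl1 and Snapc4, of which Srsf6, Rbm4b and Upf1 take part in the splicing or decay of mRNA.

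**Figure D2:**
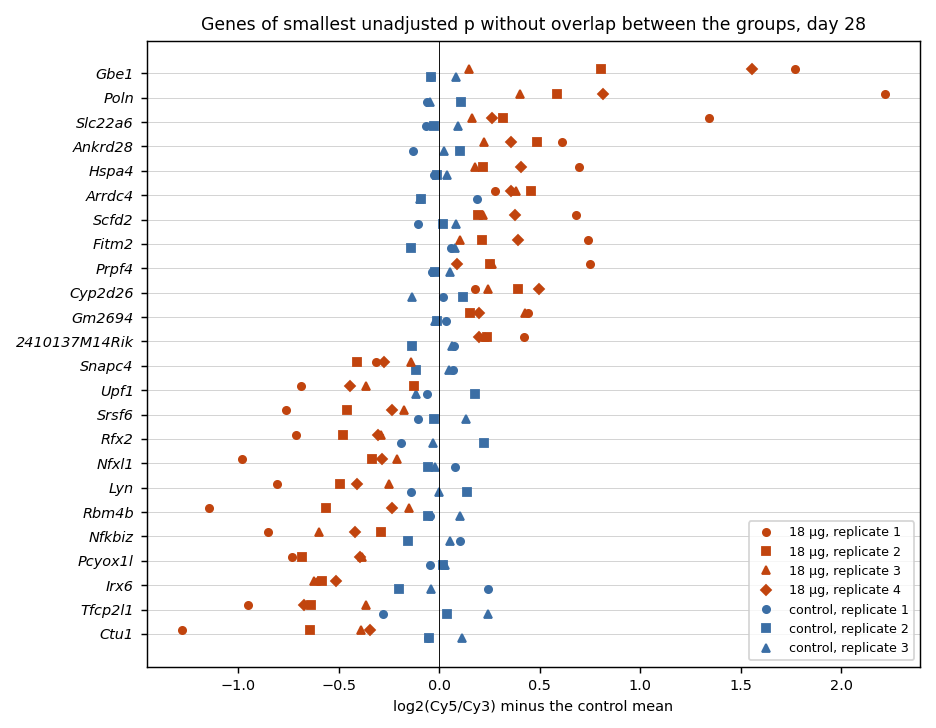
The 24 genes ranked in the text, with each mouse's log2(Cy5/Cy3) minus the control mean on the axis of values and 1 gene per line, 18 µg and control mice in separate colours. The groups do not overlap in any of the 24 because non-overlap was part of the choice, and 18 µg mouse 1 is often the farthest from the controls.

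No acute phase gene or chemokine was called against control at 18 µg, and some, such as Saa3 and Ccl24, were highest in mice 1 and 4. Of the 21 acute phase genes tested, 16 were higher and 5 lower at 18 µg, 0 at an adjusted p under 0.05, and the list's median change was 0.15 against -0.02 over all genes. That median was 0.08 without 18 µg mouse 1 and 0.07 without control mouse 3. Saa3, the serum amyloid that lung epithelium and macrophages make, was at -1.63, -3.62, -3.63 and -1.91 in 18 µg mice 1 to 4 and at -3.56, -3.55 and -3.71 in control mice 1 to 3. Mice 1 and 4 were above all control mice, and mice 2 and 3 were within the range of the controls. The difference was 0.91 (95% confidence interval -0.36 to 2.18, unadjusted p = 0.152), or 0.55 without mouse 1. The liver-type serum amyloid Saa1 differed by 0.15 (-0.69 to 0.99). Lcn2, an iron-scavenging lipocalin of epithelium and neutrophils, was at 2.71, 2.16, 1.94 and 1.69 in the 18 µg mice and at 2.20, 1.68 and 1.89 in the control mice, a difference of 0.20 (-0.45 to 0.85) with overlapping groups, which was 0.0066 without mouse 1. Orm2, an orosomucoid, had the smallest unadjusted p of the list at 0.0854: it was at 1.70, 0.97, 0.12 and 3.65 in the 18 µg mice, 3 of 4 of them well above background, and at 0.54, 0.17 and -0.16 in the control mice, 1 of 3 well above background. The protease inhibitor Timp1 differed by 0.16.

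Among 13 CC chemokines tested, 8 were higher and 5 lower at 18 µg, with a median change of 0.12, and among 12 CXC chemokines 6 were higher and 6 lower, with a median of 0.04. None passed the test, and the CC median was -0.03 without mouse 1 and 0.27 without mouse 3. The monocyte attractant Ccl2 was at -4.21, -4.92, -5.41 and -4.20 in the 18 µg mice and at -4.36, -4.39 and -5.18 in the control mice, a difference of -0.04 (-0.83 to 0.75). Its relative Ccl7 differed by 0.04 (-0.80 to 0.88). In both genes the groups overlapped across most of their range. Ccl24, an attractant of eosinophils, was at -0.28, -2.86, -3.45 and -1.29 in the 18 µg mice and at -3.01, -3.08 and -3.38 in the control mice, so that again mice 1 and 4 were the highest, and its difference of 1.19 (unadjusted p = 0.0829) was 0.63 without mouse 1. Cxcl5, an epithelial attractant of neutrophils, was at -1.56, -2.50, -3.29 and -2.81 in the 18 µg mice and at -3.03, -2.83 and -3.80 in the control mice, 2 of 3 of which were well above background. The difference of 0.68 (-0.30 to 1.65) was 0.35 without mouse 1. The cytokine list had 5 of 12 genes higher and a median of -0.05; its member nearest to a call was Areg, an epidermal growth factor receptor ligand, with -0.83 (unadjusted p = 0.0212), -0.33 without control mouse 3. Ccl17, a T cell attractant, differed by 0.46, or 0.17 without mouse 1, and Il1b by -0.07.

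Interferon-stimulated genes were not called against control at 18 µg, and 23 of them were lower than at 162 µg. Of the 28 tested, 8 were higher and 20 lower than control, the median change was -0.06, and 0 passed the test. Irf7, the transcription factor that amplifies type I interferon, was at -1.72, -0.87, -1.09 and -0.99 in the 18 µg mice and at -1.15, -1.0 and -1.15 in the control mice. The difference was -0.07 (-0.72 to 0.59), with 3 of the 18 µg mice above or within the control range and mouse 1 below it. Isg15, a ubiquitin-like antiviral protein, was at -1.30, -1.18, -0.27 and -0.72 in the 18 µg mice and at -0.47, -0.98 and -0.58 in the control mice, a difference of -0.19 (-1.06 to 0.68). Oas1a, an oligoadenylate synthetase that activates RNase L, was at -0.29, -0.47, -0.40 and -0.79 in the 18 µg mice and at -0.46, -0.70 and -0.28 in the control mice, with 0.00 between the groups (-0.65 to 0.64). The chemokine Cxcl10, an interferon target, was at -1.36, -0.78, -1.04 and -1.0 in the 18 µg mice and at -1.16, -1.04 and -1.23 in the control mice, a difference of 0.10 (-0.66 to 0.85). Isg15 and Oas1a were chosen for description after their values were seen.

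Against 162 µg at the same day, 4 genes (0.0172% of 23244) were higher and 232 (0.998%) lower in 18 µg lungs, 99 of the lower ones by at least 2-fold. The interferon list held 23 of its 28 tested genes among those lower at 18 µg, with a median difference of -1.22 over the list. The largest difference was that of Ly6i, a Ly6 family surface protein gene. It was at 0.99, 0.70, 0.57 and 0.49 in the 18 µg mice, and its level at 162 µg was 19.6-fold higher (log2 difference -4.30, adjusted p = 1e-06). Its relative Ly6f differed by -3.72. Irf7 was at 0.64, 1.68, 1.57 and 0.97 in the 162 µg mice, above every 18 µg mouse, with an 18 minus 162 difference of -2.38 (adjusted p = 9.1e-05). Oas1a differed by -2.59 (adjusted p = 2.16e-05), Isg15 by -2.09 (0.00492) and Cxcl10 by -2.14 (0.00107). Oas2, Oas3, Oasl1, Rsad2, Stat2 and Ifi44 were also lower at 18 µg than at 162 µg. The count of lower interferon genes ran from 16 to 24 over 24 alternatives, which varied the processing, the fit or the mice included. It was 16 when only the groups compared entered the fit, and 18 without 18 µg mouse 1.

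The promoters of these genes were read from RefSeq (assembly GRCm38.p6) to show which of them carry the interferon-stimulated response element that interferon regulatory factors are known to bind. The motif searched was GAAA, 2 bases of any kind and a further GAAA, or on the other strand TTTC, 2 bases of any kind and a further TTTC, in the 250 bases before each start, and its matches are in capitals. It occurred in 9 of the 21 promoters of interferon genes lower at 18 µg than at 162 µg (42.9%; 18 genes), in 10 of 25 promoters of the whole list (40%; 21 genes), and in 978 of 32851 promoters of all genes (2.98%). Isg15 (chr4:156200819-156201068, minus strand) holds 3 overlapping matches that span from 78 to 57 bases before the start. Oas1a (chr5:120907526-120907775, minus strand) holds 2 overlapping matches from 20 to 5 bases before the start. Cxcl10 (chr5:92348890-92349139, minus strand) holds 1 match, from 213 to 204 bases before the start, and Saa3 (chr7:46715677-46715926, minus strand), shown as the acute phase gene with the largest difference between 18 and 162 µg, holds 1 from 125 to 116 bases before the start.
Isg15: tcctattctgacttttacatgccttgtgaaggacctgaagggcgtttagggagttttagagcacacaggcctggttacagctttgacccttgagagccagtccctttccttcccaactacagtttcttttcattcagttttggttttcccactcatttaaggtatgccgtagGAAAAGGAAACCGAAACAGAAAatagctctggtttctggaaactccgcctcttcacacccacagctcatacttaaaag
Oas1a: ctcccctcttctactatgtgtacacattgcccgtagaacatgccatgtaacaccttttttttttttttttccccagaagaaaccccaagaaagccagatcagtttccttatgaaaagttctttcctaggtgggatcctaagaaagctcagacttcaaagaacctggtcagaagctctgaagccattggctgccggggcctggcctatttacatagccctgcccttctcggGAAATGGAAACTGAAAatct
Cxcl10: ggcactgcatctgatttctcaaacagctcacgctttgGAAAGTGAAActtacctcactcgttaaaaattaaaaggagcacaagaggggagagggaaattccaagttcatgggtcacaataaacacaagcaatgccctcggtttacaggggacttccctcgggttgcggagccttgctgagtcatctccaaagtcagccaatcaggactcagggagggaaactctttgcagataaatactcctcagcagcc
Saa3: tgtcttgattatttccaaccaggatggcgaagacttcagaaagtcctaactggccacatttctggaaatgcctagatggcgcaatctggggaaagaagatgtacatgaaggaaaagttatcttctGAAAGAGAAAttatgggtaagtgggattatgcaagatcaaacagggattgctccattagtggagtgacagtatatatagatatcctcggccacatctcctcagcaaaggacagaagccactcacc
A match is a stretch of letters and says nothing about binding in these lungs.

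The genes of inflammation that passed at the highest dose were placed on the dose scale beside 18 µg. The 3 doses share the same 3 control mice. Because these genes were picked as high in the 162 µg mice, their lower level at 18 µg follows in part from that choice. The direct tests below use the same 162 µg mice, so they describe these genes and are no independent support. The change of Saa3 against control was 0.91 at 18 µg, 1.09 at 54 µg and 4.42 at 162 µg. The change of Lcn2 was 0.20, 0.37 and 2.00 at these doses, and that of Irf7 -0.07, 0.14 and 2.32. Ly6i had changes of 0.16, 0.60 and 4.45. At 54 µg the skeletal muscle list and the squamous epithelium list each had a median change of 2.99 against the same controls. Their part in the 54 µg values was not tested. Tested directly, 18 µg lungs held 11.4-fold less Saa3 than 162 µg lungs (adjusted p = 0.00135), 3.48-fold less Lcn2 (0.0014), 4.95-fold less Cxcl5 (0.00563), 3.38-fold less Ccl2 (0.00907) and 3.92-fold less Ccl7 (0.00627). Against control, 0 genes passed at 18 µg, 0 at 54 µg and 146 at 162 µg, 144 of them higher.

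**Figure D3:**
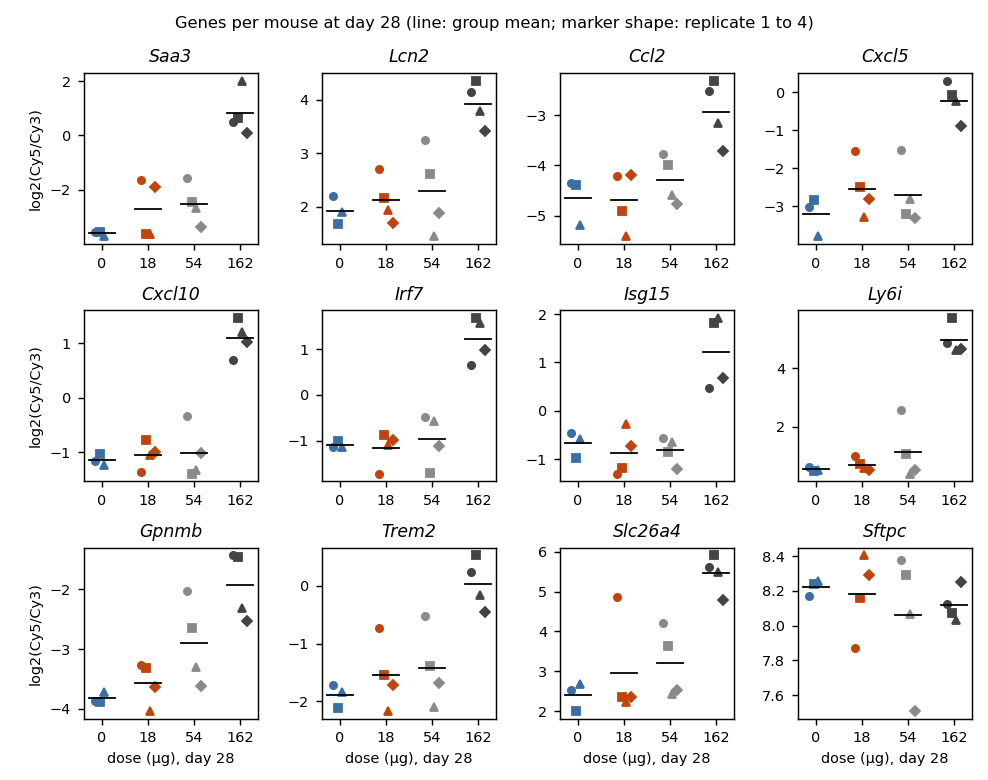
Level of 12 genes at day 28 as log2(Cy5/Cy3) (y axis) by dose in µg (x axis, doses evenly spaced, 0 being control), 1 point per mouse with the marker showing the replicate and a short line at each group mean. The 18 µg means of Irf7, Isg15, Cxcl10, Ly6i and Sftpc lie within 0.19 of control, and the 162 µg mice lie above all 18 µg mice for Saa3, Cxcl10 and Irf7.

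Genes of lipid-laden phagocytes, a list that also holds fat cell genes such as Fabp4, gave no call against control. Of the 22 tested, 18 were higher and 4 lower, and the median change was 0.14, or 0.08 without mouse 1. Gpnmb was at -3.26, -3.32, -4.03 and -3.64 in the 18 µg mice and at -3.87, -3.88 and -3.72 in the control mice, a difference of 0.26 (-0.32 to 0.84) in which 3 of the 4 18 µg mice were above every control mouse. Trem2, the lipid receptor, was at -0.73, -1.55, -2.16 and -1.71 in the 18 µg mice and at -1.71, -2.11 and -1.84 in the control mice, a difference of 0.35 (-0.33 to 1.03). Mouse 1 was the highest of the 7 and mouse 3 the lowest, and the difference was 0.08 without mouse 1. The difference of Gpnmb was 0.16 without it. Both genes were lower at 18 µg than at 162 µg, with log2 differences of -1.63 for Gpnmb (adjusted p = 0.00108) and -1.57 for Trem2 (0.0063), as was the lysosomal glycoprotein Cd68 by -0.76. Spp1, osteopontin, differed from control by 0.05, and the macrophage elastase Mmp12 was at -0.10, -0.33, -0.42 and -0.18 in the 18 µg mice, 1 of 4 well above background, and at -0.39, -0.38 and -0.35 in the control mice, 0 of 3 well above background. Lysosome genes had 9 higher, 15 lower and a median of -0.07; Gusb, Grn, Ctss and Ctsz, hydrolases or a lysosomal growth factor, were among those lower at 18 µg than at 162 µg. Over the 24 alternatives, the lysosome list had 1 to 7 such calls and the phagocyte list 0 to 8. Npc1, the lysosomal cholesterol exporter, had the smallest unadjusted p of that list against control, with -0.45 (0.0299), or -0.26 without mouse 1.

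Antigen presentation genes had 8 higher, 10 lower and a median of -0.04 against control. H2-K1, the classical class I heavy chain, was at 1.86, 2.68, 2.75 and 2.84 in the 18 µg mice and at 2.74, 2.71 and 2.74 in the control mice. Only mouse 1 stood away from the controls, and the difference of -0.20 (-0.64 to 0.24) was 0.03 without it. H2-K1, H2-T23, B2m, Tap1, Psmb8 and Nlrc5, all of the class I pathway, were lower at 18 µg than at 162 µg, by -1.19 to -0.72. These 6 calls became 2 without 18 µg mouse 1, 2 without 162 µg mouse 2 and 0 with only the compared groups in the fit. H2-K1 and its relatives are a multigene family, so a probe can also read a near copy. Complement genes had 11 of 15 higher and a median of 0.09, and C4b and Cfb were lower at 18 µg than at 162 µg.

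Among clock genes, 1 was higher and 4 were lower at 18 µg than at 162 µg. Arntl, the activating partner of Clock, was 1.79-fold higher at 18 µg than at 162 µg (adjusted p = 0.026), and 4 genes of the output and repressor side, Dbp, Nr1d2, Tef and Bhlhe40, were lower at 18 µg by -1.59 to -0.81. Without 18 µg mouse 1, and likewise with median centring, the list had 1 lower and 0 higher, and with only the compared groups in the fit it had 0 calls. Against control the list had 9 genes higher and 10 lower with a median of -0.01, Dbp differing by 0.31 (-0.27 to 0.89) and Arntl by 0.07. The other genes higher at 18 µg than at 162 µg were Egr1, an immediate early transcription factor (2.77-fold, adjusted p = 0.0343), Adm, the vasodilator adrenomedullin (2.13-fold, 0.0369), and 1 intergenic probe. Of the 24 alternatives, mice left out among them, the call was lost in 11 for Arntl, 13 for Adm and 14 for Egr1. The anion exchanger Slc26a4, an airway gene, was at 4.87, 2.36, 2.23 and 2.36 in the 18 µg mice and at 2.54, 2.01 and 2.68 in the control mice, so that only mouse 1 was above the controls. Its difference from control was 0.54 (-0.69 to 1.78), or -0.09 without mouse 1. Slc26a4 was 5.65-fold lower at 18 µg than at 162 µg (adjusted p = 0.021, limma), a call that was lost in 10 of the 24 alternatives.

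Among the lists, the largest median changes against control were those of fat and muscle genes, some of which lung cells also express. They differed widely among the mice. In bulk RNA more cells of a type cannot be told apart from more RNA per cell. The adipocyte and fatty acid synthesis list was higher in 22 of 23 tested genes, with a median change of 1.29 and 3 genes at an unadjusted p under 0.05. Fabp4, the fatty acid carrier of adipocytes and of alveolar macrophages, was at 6.52, 6.26, 3.21 and 8.67 in 18 µg mice 1 to 4 and at 4.10, 3.05 and 2.39 in control mice 1 to 3, a difference of 2.99 (-0.21 to 6.18). Dgat2, which makes triglycerides, was at 3.39, 2.03, -0.45 and 4.39 in the 18 µg mice and at 0.00, -0.56 and -0.78 in the control mice, a difference of 2.79 (0.16 to 5.42, unadjusted p = 0.0386, adjusted p = 0.893). In both genes mice 1, 2 and 4 were above every control mouse and mouse 3 was among them. Adipoq, the hormone adiponectin, was at 4.85, 5.21, 2.00 and 6.92 in the 18 µg mice and at 3.49, 1.90 and 1.04 in the control mice, and Cidea, a lipid droplet protein of brown fat, was at 3.77, 6.05, 1.96 and 5.46 against 2.30, 1.49 and 1.53. Ucp1, the uncoupling protein of brown fat, was at 0.37, 6.20, 0.15 and 2.64 in the 18 µg mice, 2 of 4 well above background, and at 0.14, -0.06 and 0.04 in the control mice, 0 of 3 well above background. Mice 2 and 4 thus carried the brown fat gene as well. Adipoq, Cidea and Ucp1 were chosen for description after their values were seen. The list's median change was 0.84 without mouse 4 and 1.70 without mouse 3. Within the 3 slides that held both groups, each with 1 array at 18 µg and 1 control array, it was 1.07, 0.20 and 2.63. At 54 µg the median was 0.86 and at 162 µg 0.00 against the same controls. The stearoyl desaturase Scd1, a lipogenic gene of alveolar type 2 cells too, differed by 0.12.

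Skeletal muscle genes were higher in 21 of 21 tested, with a median of 1.67 that was 0.05 without mouse 1. Acta1, skeletal actin, was at 7.53, -1.80, -2.49 and -2.22 in the 18 µg mice and at -1.95, -2.08 and -2.40 in the control mice, so the other 3 18 µg mice were at the control level. Cardiac muscle genes, which the muscular sleeves of mouse pulmonary veins also express, were higher in 18 of 18, with a median of 1.54. Tnnc1, the troponin C of heart and slow muscle, was at 5.34, 0.69, 1.22 and 3.73 in the 18 µg mice and at 1.02, 1.24 and -0.92 in the control mice. Myl7, the atrial myosin light chain, chosen after its values were seen, was at 4.82, 4.07, 4.90 and 6.66 in the 18 µg mice and at 4.42, 4.54 and 1.82 in the control mice. Both groups were mixed: mouse 4 was the highest for Myl7 and control mouse 3 the lowest for both genes. Without control mouse 3 the list's median change was 0.77, and within the 3 slides it was -0.38, 2.13 and 1.95. Pdk4, the kinase that shuts pyruvate dehydrogenase in fasting muscle, heart and fat, was at 6.97, 3.25, 1.70 and 2.51 in the 18 µg mice and at 0.87, 0.19 and 0.50 in the control mice. The groups did not overlap, and the difference of 3.09 (0.34 to 5.84) had an unadjusted p of 0.0293. Angptl4, an inhibitor of lipoprotein lipase on the same list of glucocorticoid targets, differed by 1.19 (unadjusted p = 0.0146), or 0.61 without control mouse 2; the list's median was 0.04. The part of the fat and muscle transcripts in these changes was not tested.

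**Figure D4:**
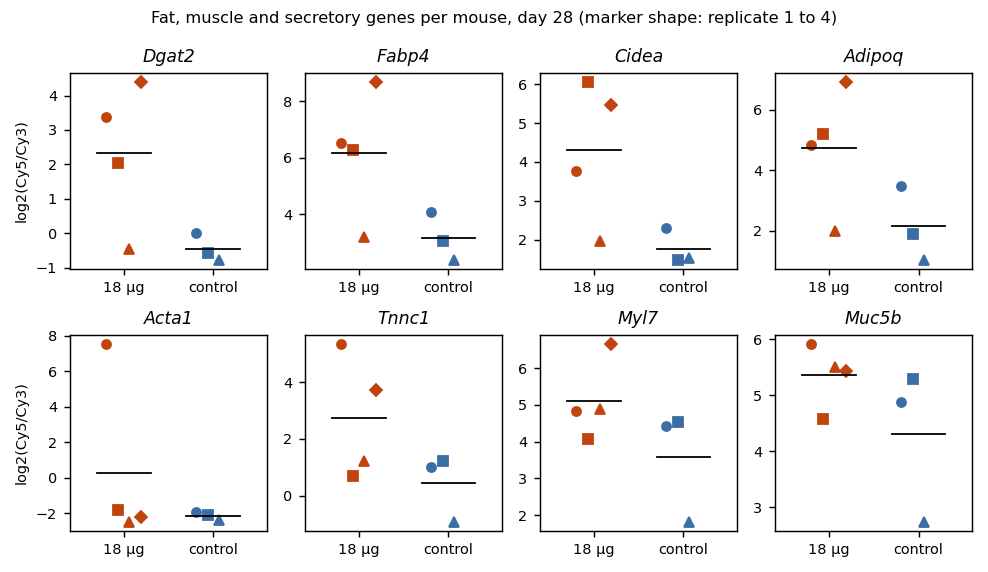
Level of 8 genes of fat (Dgat2, Fabp4, Cidea, Adipoq), muscle and heart (Acta1, Tnnc1, Myl7) and airway mucus (Muc5b) as log2(Cy5/Cy3) (y axis) in each of the 4 mice at 18 µg on the left and the 3 control mice on the right. Mouse 3 at 18 µg sits among the control mice for the fat genes, only mouse 1 is high for Acta1, and control mouse 3 is the lowest for Myl7 and Muc5b.

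Airway secretory genes also differed by mouse, with no call. Goblet cell genes were higher in 10 of 12 with a median of 0.57, which was 0.06 without control mouse 3 and -0.16 without that mouse and 18 µg mouse 1, a setting added after the data were seen. Muc5b, the main airway mucin, was at 5.91, 4.57, 5.50 and 5.44 in the 18 µg mice and at 4.88, 5.29 and 2.74 in the control mice, a difference of 1.05 (-0.25 to 2.35). Clca1, a secreted goblet cell protein, was at 8.37, 2.38, 6.92 and 3.10 in the 18 µg mice and at 4.33, 7.63 and -0.19 in the control mice. Low levels thus occurred in both groups, with control mouse 3 lowest. Ciliated cell genes had 7 higher, 12 lower and a median of -0.10, club cell genes 7 higher, 8 lower and a median of 0.00, and alveolar type 2 genes 6 higher, 12 lower and a median of -0.04. Sftpc differed by -0.04 (-0.59 to 0.51) and Scgb1a1 by -0.03 (-0.55 to 0.49).

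Among cell type lists, the list of natural killer and cytotoxic cells lay lower in every tested gene. All 16 were below control on average, as were 12959 of all 23244 genes, with a median of -0.28 and 3 at an unadjusted p under 0.05; none passed the test. Tbx21, the T-bet factor of killer and type 1 helper cells, was at 1.46, 1.79, 1.12 and 1.15 in the 18 µg mice and at 1.99, 1.79 and 1.83 in the control mice, a difference of -0.49 (-0.89 to -0.09, unadjusted p = 0.0179). The lectin receptor Klre1 was at 0.51, 1.12, 1.31 and 0.57 in the 18 µg mice and at 1.59, 1.25 and 1.97 in the control mice, and the protease granzyme A, Gzma, was at 5.12, 5.88, 5.65 and 5.00 against 5.83, 5.93 and 6.01. Mice 1 and 4 were lower than all control mice in these genes, while mice 2 and 3 lay at or close to the control range in Klre1 and Gzma. The list's median was -0.24 without mouse 1 and -0.16 without that mouse and control mouse 3. Within the 3 slides that held both groups, 1 array of each per slide, it was 0.12, -0.33 and -0.76. Against the same controls it was -0.44 at 54 µg and -0.36 at 162 µg. Endothelial genes had 2 higher, 20 lower and a median of -0.22, which was -0.12 without mouse 1 and was -0.07, 0.12 and -0.30 within the slides. Aplnr, the apelin receptor of capillary cells, was at 1.26, 1.67, 2.99 and 2.77 in the 18 µg mice and at 2.91, 3.08 and 3.50 in the control mice, a difference of -1.0 (-1.66 to -0.33, unadjusted p = 0.00487). Mice 1 and 2 were well below the control mice, and mouse 3 overlapped them. Sox17, an arterial transcription factor, differed by -0.71 (unadjusted p = 0.0486). Alveolar type 1 genes had 2 higher, 13 lower and a median of -0.29, or -0.11 without mouse 1, and within the slides 0.02, 0.03 and -0.32. Elastin, Eln, the fibre protein of alveolar walls, was at 0.88, 1.67, 2.84 and 2.52 in the 18 µg mice and at 2.35, 2.84 and 2.95 in the control mice; its difference was -0.74 (unadjusted p = 0.0421), -0.37 without mouse 1.

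The remaining lists had medians between -0.17 and 0.25, with no call. Neutrophil genes had 17 higher, 1 lower and a median of 0.20, or 0.06 without control mouse 3, eosinophil and mast cell genes 8 higher, 3 lower and 0.12, B and plasma cell genes 14 higher, 6 lower and 0.10, and T cell genes 7 higher, 11 lower and -0.03. Alveolar macrophage genes had 8 higher, 9 lower and a median of -0.02, and interstitial macrophage and monocyte genes 10 higher, 11 lower and -0.03. Markers of alternative activation were not called: Arg1, arginase, was at 2.10, 0.70, 0.81 and 0.54 in the 18 µg mice and at 0.90, 0.50 and 0.62 in the control mice, only mouse 1 being above all controls by far, Retnla differed by 0.52 and Chil3 by 0.27. Cell cycle genes had 4 higher, 22 lower and a median of -0.12, with Mki67, Ccna2, Cdc20 and Nusap1 lower in every 18 µg mouse than in every control mouse, as 2.62% of all tested genes were, and the replication helicase gene Mcm5 differed by -0.06. Oxidative stress genes had 11 higher and 11 lower with a median of 0.00, Hmox1, haem oxygenase, differing by 0.44 and the metallothionein Mt2 by -0.08. Cholesterol synthesis had 7 higher, 14 lower and a median of -0.02, fibroblast and matrix genes 9 higher, 21 lower and -0.11, hypoxia and glycolysis genes 13 higher, 3 lower and 0.18, and xenobiotic metabolism genes 6 higher, 15 lower and -0.06. The 10 lists not described so far, among them smooth muscle, dendritic cells, thymus and immediate early genes, had medians from -0.17 to 0.25. Over all 43 lists, 710 genes were tested, 20 had an unadjusted p under 0.05 (2.82%), against 1005 of all 23244 genes, and 0 passed. Beyond those already named, these 20 included Acacb, Junb, Ces1g, Ephx1, Gzmk, Blk, Kcnk2 and Rspo1; Rspo1, a Wnt agonist, was at 5.37, 4.92, 5.19 and 5.22 in the 18 µg mice and at 2.41, 4.88 and 5.15 in the control mice, its difference of 1.03 being 0.16 without control mouse 1.

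**Figure D5:**
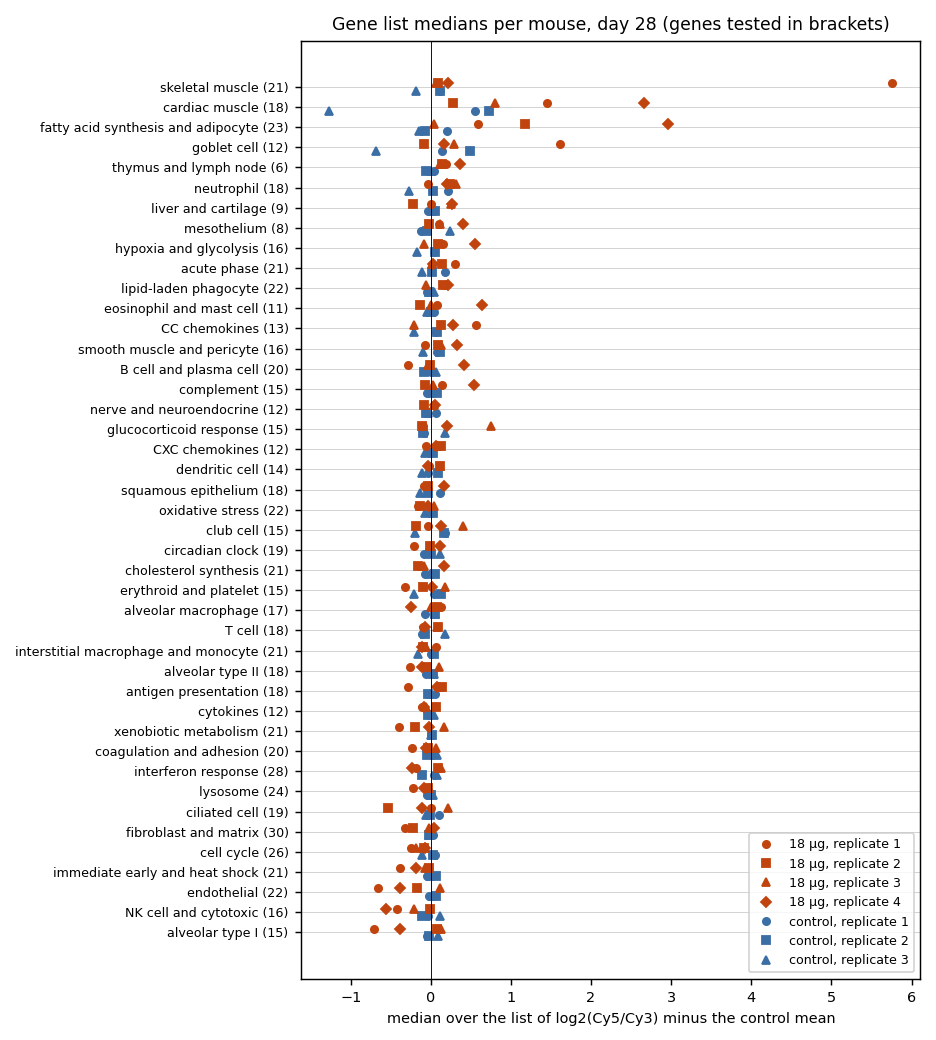
Median over the tested genes of each of 43 lists of log2(Cy5/Cy3) minus the control mean (axis of values), 1 point per mouse, 18 µg and control mice in separate colours and 1 list per line. Mouse 1 at 18 µg is alone at 5.76 for skeletal muscle, mouse 4 reaches 2.97 for the adipocyte list, and control mouse 3 is at -1.27 for cardiac muscle, while most lists stay near 0 in all 7 mice.

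The same dose was measured 1 day after instillation, in 3 mice at 18 µg and 4 control mice. There too 0 genes (0%) were higher and 0 (0%) lower at an adjusted p under 0.05 in limma, 950 having an unadjusted p under 0.05. The change at day 28 was then compared with the change at day 1 in the same model, and 0 genes (0%) had a higher and 0 (0%) a lower change at day 28, with 1553 at an unadjusted p under 0.05 and a smallest adjusted p of 0.692. The medians of the tissue lists had opposite signs at the 2 times. The median change of the adipocyte list was 1.29 at day 28 and -0.78 at day 1, that of the skeletal muscle list 1.67 and -1.98, and that of the cardiac list 1.54 and -2.00. At day 1, 4 of 5 control arrays and 1 of 4 arrays at 18 µg were above the muscle limit, against 0 of 4 control arrays and 1 of 4 at 18 µg at day 28. Their part in these medians was not tested. The natural killer list had medians of -0.28 at day 28 and 0.28 at day 1.

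At day 28, 0 genes passed against control in limma under each of the 23 alternatives run, with a smallest adjusted p of 0.406. The number with an unadjusted p under 0.05 ranged widely, up to 2542 without 18 µg mouse 3. It was 340 without 18 µg mouse 1 and 475 without control mouse 3. Without both of these mice, a setting added after the data were seen, it was 214, the lowest. The comparison with 162 µg had 236 calls, 138 without 18 µg mouse 1, 149 without 162 µg mouse 2, 154 with the mouse whose labels conflict placed in day 1 and 71 with only the compared groups in the fit.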

How the data were processed

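The deposited scanner files hold foreground and background intensities of both dyes, written by Agilent Feature Extraction 11.0.1.1, per the file headers. The deposited LogRatio column is a log10 ratio of Cy5 over Cy3 made by that software. Values in the deposited table are log2 ratios of Cy5 to Cy3, whose normalization is not given in the sources used here. Over the 36 arrays of the series, the table's array medians were -0.039 to -0.018. Its correlation across probes with the loess ratios used here was 0.986 to 0.997 per array. No spot was saturated.

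Intensities were processed with R 4.3.3, limma 3.58.1 and the data.table package (1.17.8). Background was removed with normexp (offset 50), ratios were normalized by loess within arrays, and arrays of 1 mouse were averaged. Of 55681 probes, 28026 were named through RefSeq accessions. The brightest probe of each gene was kept, and a gene was tested when 3 or more mice of 1 group had it well above background on all their arrays, which left 23244 genes, 15188 of them with a symbol. A single limma fit with group means covered all 29 mice (21 residual and 2.9 prior degrees of freedom). Tests were two-sided, with a Benjamini-Hochberg adjusted p under 0.05 within each comparison. For arrays, precision is limited by the number of mice and by signal over background.

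Named genes were the 12 higher and 12 lower genes with the smallest unadjusted p among non-overlapping genes, the member of each list called or with the smallest p, the extremes of 18 against 162 µg, and 28 fixed genes, 99 in all; every other gene described, such as Pdk4, Clca1, Klre1, Gzma and Sox17, was chosen after its values were seen. The members and gene lists were chosen with earlier results of these data known. Alternatives covered background correction, normalization, filter, probe choice, samples in the fit, slide, array weights, muscle arrays, the mouse of conflicting labels and each mouse left out. 3 of the 5 slides held both groups, and 18 µg mouse 1 was alone on another. Each value within a slide is thus 1 array at 18 µg minus 1 control array, without mouse 1.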

Additional observations from a re-analysis of the deposited data

Results flagged for a closer look

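Among 160 sets of 4 mice, the named genes and list medians at 18 µg and the called named genes at 162 µg, 11 stood out: the gap of 1 mouse to its nearest neighbour was above Dixon's 95% critical value for 4 samples, as a share of the group's range; chance alone marks about 1 in 20 groups. All 11 were in the 18 µg group, which also gave most of the sets, with 99 named genes and 43 list medians. Of the 11, 8 were mouse 1, which carried the muscle transcripts. For mouse 1 the share was 0.976 for the skeletal muscle list (median 5.76 above control, others 0.07 to 0.21), 0.931 for Acta1 (7.53, others -2.49 to -1.80), 0.953 for the anion exchanger Slc26a4 (4.87, others 2.23 to 2.36), 0.872 for Slc22a6 (1.32, others 0.14 to 0.29), 0.835 for 2410137M14Rik (0.41, others 0.19 to 0.22), 0.837 for Nfxl1 (-1.99, others -1.35 to -1.22), 0.843 for H2-K1 (1.86, others 2.68 to 2.84) and 0.86 for the antigen presentation list (-0.28, others 0.08 to 0.14). Mouse 3 stood apart for the clock gene Nr1d1, with a share of 0.863 (0.84, others 1.49 to 1.59), and for the keratin Krt13, with a share of 0.958 (-2.14, others -1.66 to -1.64), where 1 of 4 18 µg mice and 0 of 3 control mice were well above background. Mouse 2 stood apart for the nerve and neuroendocrine list, with a share of 0.872 (-0.08, others 0.04 to 0.05).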

How the results depend on the processing

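Between 18 µg and control at day 28, 0 genes passed under all 23 alternatives. No paired analysis was possible because the labels give no replicate number shared between groups; slide was fitted as a block instead, with 817 genes at an unadjusted p under 0.05. The comparison of 18 with 162 µg had 236 calls, 155 with scanner-processed ratios, 157 with median centring, 71 with only the compared groups in the fit, 154 with the mouse whose labels conflict placed in day 1, and 127 without 18 µg mouse 1 and control mouse 3, a setting added after the data were seen; leaving out 1 mouse gave 138 (without 18 µg mouse 1) to 307 (without 18 µg mouse 3). Median centring moved the median of all genes in that comparison to -0.18. The day 1 comparison had 0 calls, 1 with array weights, 5 without the muscle arrays, and 0 to 2 with 1 mouse left out (2 without control mouse 1 of day 1). The day 28 minus day 1 difference had 0 calls. Leaving out the muscle arrays removes 4 of the 5 control arrays of day 1, so that only control mouse 1 keeps an array there. Counts of calls that use the day 1 controls are therefore not given for that setting. The cause of these shifts was not tested. Leaving mice out also lowers the number of mice in the fit, and the count of calls fell in some of these settings and rose in others.

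Of 99 named genes, 24 changed the sign of a difference from control that was never called, in 92 values with a lowest adjusted p of 0.857. With scanner-processed ratios the difference was 0.37 for Fabp1, 0.12 for Il1b and 0.78 for Krt13. With an offset of 10 the difference was 0.0016 for Scgb1a1 and 0.0089 for Krt13. With median centring the difference was -0.02 for Adm, -0.0385 for Arntl, -0.0758 for Ccl7 and -0.0414 for Spp1. In the deposited value table the difference was 0.0073 for Ccl2 and 0.0324 for Krt13. With slide as a block the difference was -0.0108 for Adm, -0.0385 for Ccl7, 0.0342 for Sftpc, 0.0281 for Irf7, 0.0071 for Scgb1a1 and 0.15 for Krt13. With mouse as a random block the difference was 0.0013 for Il1b. With array weights the difference was -0.12 for Ccl7, 0.0426 for Il1b, -0.0123 for Spp1, 0.022 for Sftpc, 0.0588 for Irf7 and 0.0332 for Scgb1a1. Without the muscle arrays the difference was 0.0259 for H2-K1, 0.0887 for Trp63, -0.04 for Arntl, -0.15 for Ccl7, -0.0942 for Slc26a4, 0.10 for Il1b, -0.18 for Chil3, 0.062 for Sftpc, 0.0145 for Mcm5, 0.12 for Irf7, 0.11 for Scgb1a1 and -0.0223 for Acta1. With muscle and squamous covariates the difference was 0.0028 for Trp63, -0.0195 for Adm, -0.0291 for Arntl, -0.17 for Ccl7, 0.13 for Il1b, 0.0528 for Sftpc, 0.0121 for Mcm5, 0.12 for Irf7 and -0.66 for Acta1.

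The next ranges include the setting without both 18 µg mouse 1 and control mouse 3, which was added after the data were seen. For Saa1, Lcn2, Timp1, Ccl17 and Arg1 only that setting changed the sign. With mice left out, the differences ran from -0.30 to 0.0307 for H2-K1, -0.29 to 0.0887 for Trp63, -0.0905 to 0.25 for Adm, -0.0616 to 0.15 for Arntl, -0.0562 to 0.35 for Saa1, -0.0101 to 0.34 for Lcn2, -0.0078 to 0.33 for Timp1, -0.47 to 0.20 for Ccl2, -0.32 to 0.30 for Ccl7, -0.07 to 0.59 for Ccl17, -0.0942 to 0.79 for Slc26a4 and -0.26 to 0.10 for Il1b. They ran from -0.0174 to 0.53 for Arg1, -0.18 to 0.55 for Chil3, -0.16 to 0.17 for Spp1, -0.26 to 0.0316 for Mt2, -0.58 to 0.49 for Scd1, -0.11 to 0.0801 for Sftpc, -0.18 to 0.0145 for Mcm5, -0.17 to 0.12 for Irf7, -0.15 to 0.11 for Scgb1a1, -0.15 to 3.32 for Acta1 and -0.15 to 0.0896 for Krt13. With 3 control mice and at most 4 at 18 µg, small changes could not be called. The printed intervals are not adjusted for the number of genes, so a change whose interval excludes 0 can still fail the test.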
